A study of Mus musculus with 70 samples.

Results

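The 10 genes described here mark the oligodendrocyte lineage before and during differentiation: Cspg4, Ptprz1, Olig1, Olig2, Sox10, Nkx2-2, Gpr17, Bcas1, Tcf7l2 and Myrf. They were chosen by name, as precursor and newly formed oligodendrocyte genes, and all 10 were found among the 50789 genes of the deposited count table. The study measured mRNA by poly(A)-selected RNA-seq in mice with a knockout of the short isoform (Cic-S-KO) or the long isoform (Cic-L-KO) of Capicua, a transcriptional repressor, and in their pooled wild-type (WT) littermates. Cortex and cerebellum were taken at 12 weeks of age, with 8 WT, 7 Cic-S-KO and 8 Cic-L-KO libraries for each region. Lung was taken at postnatal day 6, with 8 libraries per genotype. No label gives a Cre line or a second agent, the line that each WT mouse came from, or whether a cortex and a cerebellum library share an animal. The labels call the libraries of a group replicates without naming animals, so that p-values measure the spread between these samples.

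Oligodendrocytes arise from precursor cells that carry the proteoglycan encoded by Cspg4 (NG2) and divide throughout life. Olig1, Olig2, Sox10 and Nkx2-2 encode transcription factors that specify the lineage and prepare its differentiation. Cells that commit to differentiate pass through a brief stage marked by the receptor gene Gpr17 and by Bcas1, and then switch on Myrf, the transcription factor that drives the myelin genes. Tcf7l2 encodes a Wnt effector used at the onset of differentiation, and Ptprz1 a receptor phosphatase of precursors and astrocytes whose ligand is pleiotrophin (Ptn). Capicua binds an octamer of the form TGAATGAA or a close variant, and loss of Capicua has been linked to changes in this lineage.

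Promoter sequences (250 bases before to 50 bases after a transcription start, RefSeq, GRCm38.p6) were held for 5 of the 10 genes, in 6 windows. They were searched on both strands for the octamers TGAATGAA, TCAATGAA, TGAATGGA and TCAATGGA, and for the SOX core ACAAAG. In GRCm38 (GENCODE M21) the genes other than Gpr17, whose position is not given here, lie at chr9:56865033-56899870 (Cspg4), chr6:22875502-23052916 (Ptprz1), chr16:91269772-91271933 (Olig1), chr16:91225457-91228677 (Olig2), chr15:79154908-79165240 (Sox10), chr2:147177546-147194243 (Nkx2-2), chr2:170346991-170427845 (Bcas1), chr19:55741820-55933654 (Tcf7l2) and chr19:10208272-10240748 (Myrf). The Olig2 window, at chr16:91225300-91225599 on the plus strand, held the only octamer among the 6 windows, and the Nkx2-2 window, at chr2:147186353-147186652 on the minus strand, held neither motif. Both are shown because Olig2 carries the Capicua letters and Nkx2-2 is the lineage factor whose level differed between genotypes in both brain regions. The Nkx2-2 window lies inside the span of the gene given above, and the sequence at the outer start of that span was not searched. Capitals mark the octamer, here as the reverse complement of TCAATGAA.
Olig2: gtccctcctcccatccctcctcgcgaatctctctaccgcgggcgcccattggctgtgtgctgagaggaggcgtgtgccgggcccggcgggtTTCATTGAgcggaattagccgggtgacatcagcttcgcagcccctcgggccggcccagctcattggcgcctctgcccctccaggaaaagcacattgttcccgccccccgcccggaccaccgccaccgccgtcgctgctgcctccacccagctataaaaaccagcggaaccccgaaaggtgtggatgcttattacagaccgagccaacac
Nkx2-2: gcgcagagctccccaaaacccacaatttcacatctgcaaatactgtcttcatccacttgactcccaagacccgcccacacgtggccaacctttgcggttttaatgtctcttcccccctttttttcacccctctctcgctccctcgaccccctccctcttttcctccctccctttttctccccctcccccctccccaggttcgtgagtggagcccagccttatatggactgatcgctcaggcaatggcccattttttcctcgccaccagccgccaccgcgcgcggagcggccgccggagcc
An octamer of these 4 spellings was present in 1260 of 32851 promoter windows of the same length (3.835%). The SOX core was present in 6147 windows (18.71%), and among the members only in the second of the Tcf7l2 windows. The promoters of Olig1, Sox10, Gpr17, Bcas1 and Myrf are not shown.

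The brain libraries held between 20440799 and 32548951 counted reads and the lung libraries between 17798655 and 35523037. All brain libraries belong to batch 2 of the labels and all lung libraries to batch 1. Counts sum the isoforms of Cic, so that they do not check the knockouts. Cic ran from 150.3 to 173 CPM in WT cortex, from 237 to 260.5 for Cic-S-KO and from 269 to 318 for Cic-L-KO, with no overlap of the 3 groups, and thus stood above WT in both knockouts. In cerebellum it ran from 172 to 212, 183 to 227 and 195 to 230.3 CPM in the same order, and in lung from 128 to 157, 149 to 183 and 131 to 148, with overlap of each knockout with WT. No pair of libraries of a group was identical. Levels are given as CPM, a gene's reads scaled to a common library size after trimmed mean of M-values (TMM) normalization, and compared between genes only per kilobase of exon. The strand of the counting is not given in the sources used here, and a gene with an overlapping neighbour therefore has an uncertain level: Gpr17 lies within Lims2, Nkx2-2 overlaps Nkx2-2os and 6430503K07Rik, Bcas1 overlaps Bcas1os1 and Bcas1os2, Olig1 overlaps Gm15966, and Tcf7l2 overlaps Ppnr.

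Every one of the 10 genes had at least 53 reads in every brain library. The myelin gene Mbp, which marks mature oligodendrocytes, ran from 2104 to 5615 CPM in the brain libraries and reached at most 42.4 CPM in lung. Per kilobase of exon, the order in WT cortex ran from Olig1 (44.6 ± 5.61 CPM per kilobase, SD, n = 8) and Bcas1 (36.2 ± 3.87) through Ptprz1, Sox10, Olig2, Gpr17 and Myrf to Cspg4 (1.75 ± 0.172), Nkx2-2 (0.924 ± 0.132) and Tcf7l2 (0.763 ± 0.273). The ranges of the 8 WT libraries overlapped between the neighbours Olig1 and Bcas1, Sox10 and Olig2, Olig2 and Gpr17, and Nkx2-2 and Tcf7l2, and between no other neighbours in that order. In WT cerebellum Bcas1 stood first (44.1 ± 8.16 CPM per kilobase) and Cspg4 last (0.695 ± 0.144), and Gpr17 stood below Myrf. In lung, which has no oligodendrocytes, Olig1, Olig2, Sox10 and Nkx2-2 did not pass the filter on low counts and reached at most 0.609, 0.526, 2.86 and 0.159 CPM in any library. These maxima all lay in Cic-S-KO lung. Neuron markers there summed to 2.57 to 49.2 CPM (median 3.56), against 2.87 to 4.48 in WT lung. Whether the same library holds these highest values is not given here. Cspg4 (50.2 ± 7.0 CPM in WT), Myrf (47.1 ± 3.88) and Tcf7l2 (29.4 ± 3.88) were abundant in lung, so these genes are not restricted to the lineage.

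The WT cortex and cerebellum differed in 7 of the 10 genes at an adjusted p under 0.05 (edgeR), against 73.5% of all genes tested. Of the 10, 5 were higher in cortex (35.4% of all genes) and 2 lower (38.2%). Gpr17 had a median of 58.5 CPM in WT cortex and 20.8 in WT cerebellum, with no overlap of the 8 libraries of each, and a log2 difference of 1.64 ± 0.10 (SE, adjusted p = 1.39e-19). Cspg4 was 20.9 ± 2.06 CPM in cortex and 8.29 ± 1.72 in cerebellum, a log2 difference of 1.42 ± 0.10. Olig2 (log2 difference 0.65), Olig1 (0.51) and Sox10 (0.22) were also higher in cortex, although the Sox10 difference missed the threshold with no filter on low counts (adjusted p = 0.0986). Nkx2-2 and Ptprz1 differed in the other direction, with log2 differences of -0.97 ± 0.11 and -0.64 ± 0.05. Bcas1, Myrf and Tcf7l2, at 137, 54.5 and 6.69 CPM in WT cortex and 166, 61.3 and 6.86 CPM in WT cerebellum, did not pass the test. In bulk tissue, fewer cells of a type and less RNA per cell cannot be told apart.

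**Figure D1:**
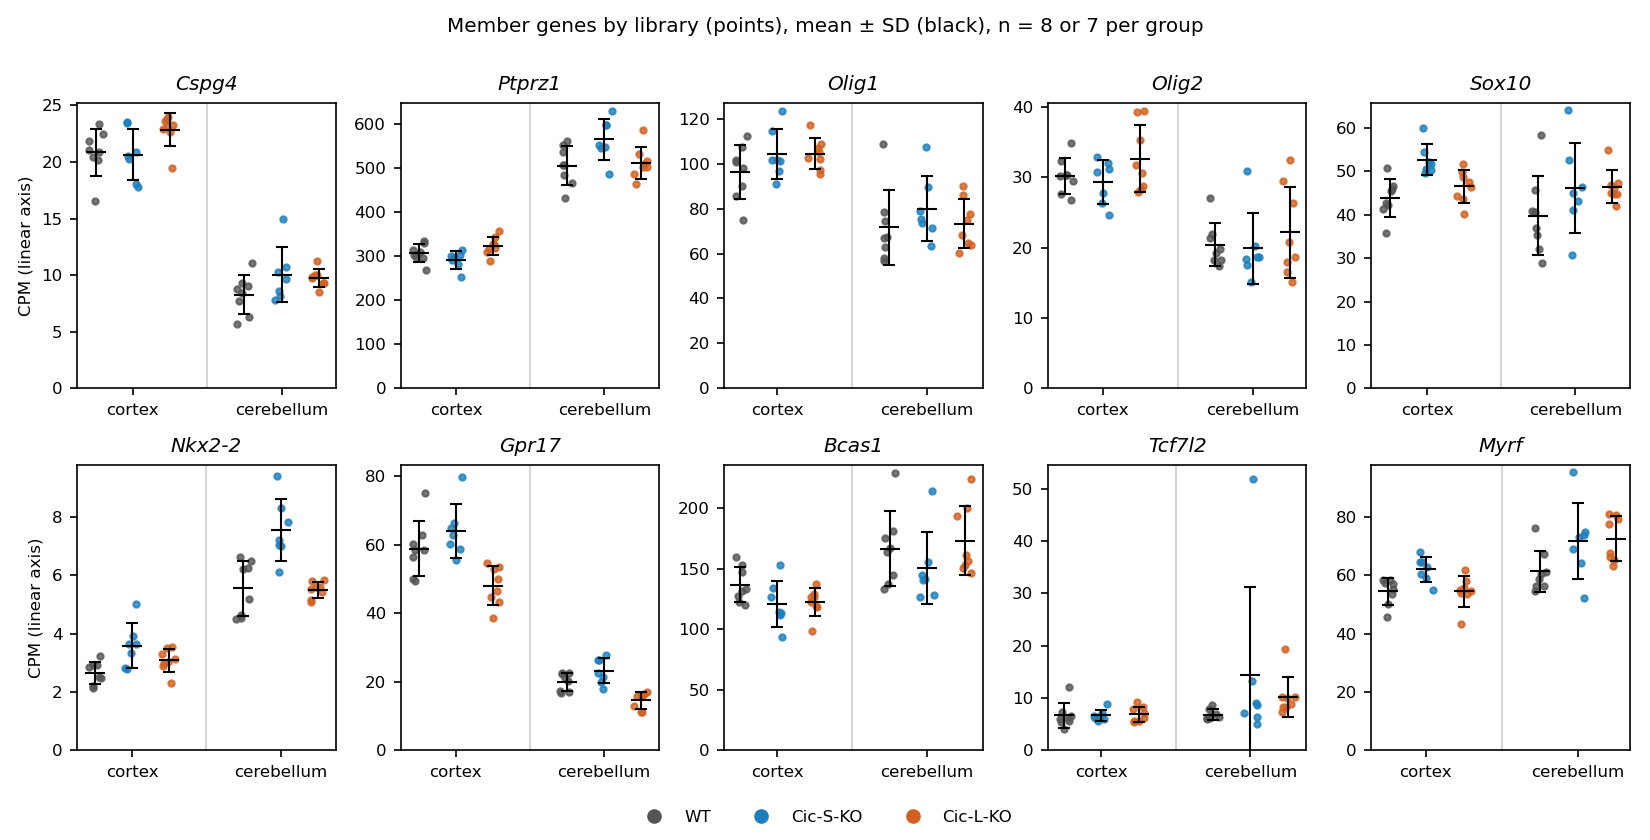
CPM of the 10 genes in every cortex and cerebellum library (points; linear axes from 0), with group mean and SD in black, for WT (grey), Cic-S-KO (blue) and Cic-L-KO (orange). Gpr17 of the Cic-L-KO libraries lies below that of every Cic-S-KO library in both regions, and a single Cic-S-KO cerebellum library stands at 51.9 CPM for Tcf7l2.

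Few of the 10 genes passed a test against WT, and both knockouts were compared with the same WT libraries. In Cic-S-KO cortex, 3 of 10 were higher than in WT (Sox10, Nkx2-2 and Myrf) and none lower, against 2.83% of all genes higher and 3.70% lower (6.53% called in all). In Cic-L-KO cortex only Gpr17 passed, lower than in WT, where 21.4% of all genes were higher and 21.9% lower (43.2% in all). In cerebellum Nkx2-2 alone was higher in Cic-S-KO (4.34% of all genes higher, 3.89% lower, 8.23% in all). Gpr17 alone was lower in Cic-L-KO cerebellum (10.9% of all genes higher, 10.6% lower, 21.5% in all). In cortex the knockouts differed from each other in 4 of 10 genes, with 3 higher and 1 lower in Cic-S-KO (17.4% and 16.5% of all genes, 33.9% in all). In cerebellum they differed in 2 of 10, both higher in Cic-S-KO (6.06% of all genes, with 6.38% lower and 12.4% in all). Beside these backgrounds, the Cic-S-KO cortex count was above the share of all genes, the Cic-L-KO cortex count was below it, and the cerebellum counts against WT were near it. These readings depended on the fit. The Cic-S-KO cortex count was 0 with GC adjustment and 1 with the replicate number as a block or without Cic-S-KO replicate 2 or 7 or WT replicate 3 or 5. Calls over all genes in that comparison also fell, from 1108 to 453 with GC adjustment and to 627 with the block. Without Cic-S-KO replicate 7 or WT replicate 3 they came to 655 and 634. The Cic-L-KO cerebellum count was 3 in a fit to WT and Cic-L-KO alone and 4 without 4 libraries rich in brainstem transcripts. The shares of all genes called in those fits are not given here, so these counts have no background beside them. The median log2 difference of the 10 genes was 0.06 for Cic-S-KO and 0.08 for Cic-L-KO cortex, and 0.22 and 0.09 in cerebellum, beside medians of all genes of -0.00087, 0.011, 0.0053 and 0.0038 in the same order.

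Gpr17, the receptor of committed precursors, had the smallest adjusted p of the 10 genes between the knockouts in both regions. In cortex its level ran from 49.5 to 75.0 CPM in WT (median 58.5), from 55.6 to 79.8 in Cic-S-KO (median 62.9) and from 38.6 to 54.7 in Cic-L-KO (median 48.2). The 4 lowest Cic-L-KO libraries lay below every WT library, and all 7 Cic-S-KO libraries lay above all 8 Cic-L-KO libraries. The log2 difference was -0.29 ± 0.09 (SE) for Cic-L-KO against WT (adjusted p = 0.00778), 0.12 ± 0.09 for Cic-S-KO against WT (adjusted p = 0.435) and 0.41 ± 0.09 for Cic-S-KO against Cic-L-KO (adjusted p = 0.00068).

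In cerebellum Gpr17 ran from 16.8 to 22.6 CPM in WT (median 20.8), from 18.0 to 27.9 in Cic-S-KO (median 22.7) and from 11.1 to 17.1 in Cic-L-KO (median 16.0). Here 7 of 8 Cic-L-KO libraries were below every WT library, and the knockouts again did not overlap. Gpr17 fell by 0.45 ± 0.11 on the log2 scale in Cic-L-KO (adjusted p = 0.00278), and Cic-S-KO exceeded Cic-L-KO by 0.67 ± 0.11 (adjusted p = 0.000118). Cic-S-KO was 0.22 ± 0.11 above WT, which did not pass (adjusted p = 0.209). The Cic-L-KO difference was not detectably different between regions (cortex minus cerebellum 0.16 ± 0.14, adjusted p = 0.435). These calls held in every one of the 30 alternatives in cortex and the 31 in cerebellum. Lims2, the gene around Gpr17, was called only between the knockouts in cortex (log2 difference 0.30 ± 0.10, adjusted p = 0.0245) and was -0.21 ± 0.10 in Cic-L-KO cortex and -0.18 ± 0.13 in Cic-L-KO cerebellum against WT (adjusted p = 0.0864 and 0.35). Lims2 stood at 8.83 ± 1.64 CPM in WT cortex, and its part in the Gpr17 values was not tested.

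Nkx2-2, the homeodomain factor whose window is printed above, was higher in Cic-S-KO in both regions. In cerebellum it ran from 4.49 to 6.62 CPM in WT (median 5.68), from 6.10 to 9.41 in Cic-S-KO (median 7.20) and from 5.09 to 5.83 in Cic-L-KO (median 5.56). In 6 of 7 Cic-S-KO libraries it was above every WT library, and all 7 were above every Cic-L-KO library. The log2 difference was 0.45 ± 0.10 against WT (adjusted p = 0.0059) and 0.46 ± 0.10 against Cic-L-KO (adjusted p = 0.00232). Cic-L-KO differed from WT by -0.01 ± 0.10 (adjusted p = 0.96). Both Cic-S-KO calls in cerebellum held in all 31 alternatives.

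In cortex Nkx2-2 is a low gene, with 53 to 162 reads per library. Its level ran from 2.13 to 3.22 CPM in WT (median 2.68), from 2.78 to 5.0 in Cic-S-KO (median 3.65) and from 2.32 to 3.53 in Cic-L-KO (median 3.08). The highest 5 of 7 Cic-S-KO libraries were above every WT library. Nkx2-2 rose by 0.44 ± 0.13 on the log2 scale in Cic-S-KO (adjusted p = 0.0369), and was 0.22 ± 0.13 above WT in Cic-L-KO (adjusted p = 0.166). The Cic-S-KO call was lost without Cic-S-KO replicate 2 (0.34, adjusted p = 0.108), 6 or 7, and without WT replicate 1, 3, 5 or 8, where the adjusted p lay between 0.0513 and 0.0792. It was lost as well with the replicate number as a block (adjusted p = 0.0603), with no filter on low counts (0.0694) and in a fit to WT and Cic-S-KO alone (0.0656). The Cic-S-KO difference of cortex minus that of cerebellum was -0.01 ± 0.16 (adjusted p = 0.981).

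Sox10, which marks the lineage from precursor to mature cell, and Myrf, the factor of the myelin genes, were both higher in Cic-S-KO cortex. Sox10 ran from 35.7 to 50.8 CPM in WT cortex (median 44.0), from 49.7 to 59.9 in Cic-S-KO (median 51.8) and from 40.2 to 51.8 in Cic-L-KO (median 47.0). The Cic-S-KO group overlapped WT, with 4 of 7 libraries above every WT library. Sox10 rose by 0.27 ± 0.06 on the log2 scale in Cic-S-KO (adjusted p = 0.00833), and Cic-S-KO exceeded Cic-L-KO by 0.18 ± 0.06 (adjusted p = 0.019). The second of these missed the threshold without Cic-S-KO replicate 1 (0.14, adjusted p = 0.0609).

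Myrf ran from 45.6 to 58.5 CPM in WT cortex (median 56.1), from 55.0 to 68.1 in Cic-S-KO (median 62.8) and from 43.5 to 61.7 in Cic-L-KO (median 54.7). In 6 of 7 Cic-S-KO libraries Myrf was above every WT library. The log2 difference was 0.19 ± 0.06 against WT (adjusted p = 0.0495) and 0.19 ± 0.06 against Cic-L-KO (adjusted p = 0.0127). The first sits at the threshold: it was lost with the replicate block (adjusted p = 0.0516) and in 13 of the 23 fits that each left out a single library, namely Cic-L-KO replicates 1, 3 and 6, Cic-S-KO replicates 1, 2, 3, 5 and 7, and WT replicates 2, 3, 5, 6 and 7, with log2 differences of 0.16 to 0.20 and adjusted p up to 0.0919. Removing the relation of each library to gene GC content lowered the Cic-S-KO cortex differences of Sox10 to 0.17 (adjusted p = 0.0981), of Nkx2-2 to 0.40 (0.0784) and of Myrf to 0.13 (0.204), so none of the 3 was then called. The same adjustment lowered the calls over all genes from 1108 to 453.

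In cerebellum neither Sox10 nor Myrf passed in edgeR, while DESeq2 called Myrf in Cic-L-KO (0.24, adjusted p = 0.0312), as did the edgeR fit to WT and Cic-L-KO alone (0.24, adjusted p = 0.0192). Mean Sox10 was 39.8 ± 9.22 CPM for WT, 46.2 ± 10.3 for Cic-S-KO and 46.5 ± 3.76 for Cic-L-KO. Mean Myrf was 61.3 ± 7.12 CPM for WT, 71.7 ± 13.0 for Cic-S-KO and 72.6 ± 7.68 for Cic-L-KO, with log2 differences of 0.23 ± 0.10 and 0.24 ± 0.09 (adjusted p = 0.138 and 0.0613). The knockout means of both genes were above WT, and the WT range of 28.8 to 58.4 CPM for Sox10 spanned all Cic-L-KO libraries. Myrf passed in Cic-L-KO without WT replicate 1 (0.29, adjusted p = 0.0188), Cic-L-KO replicate 1 or 7, or Cic-S-KO replicate 3 or 6, and in Cic-S-KO without Cic-S-KO replicate 3 (0.29, adjusted p = 0.0334). Sox10 passed in Cic-L-KO without WT replicate 1 (0.32, adjusted p = 0.0458).

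**Figure D2:**
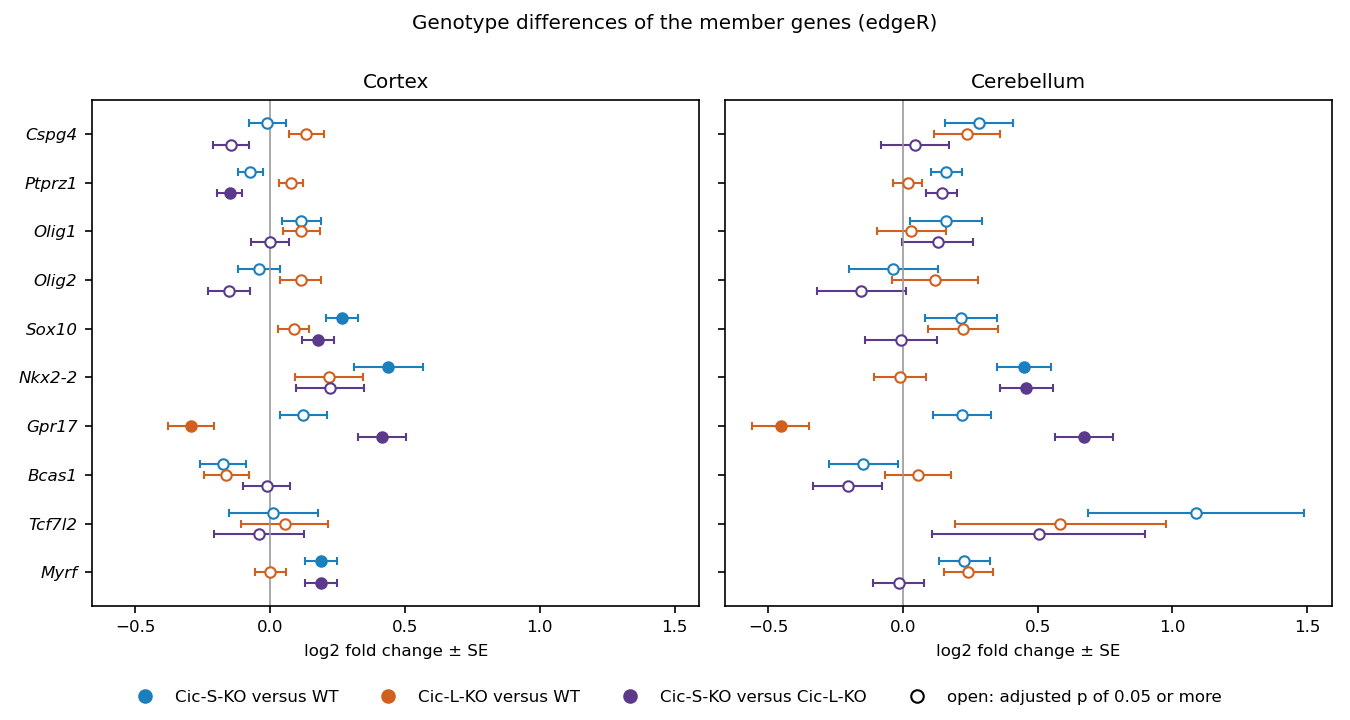
Log2 difference ± SE of each gene in cortex (left) and cerebellum (right) for Cic-S-KO against WT (blue), Cic-L-KO against WT (orange) and the comparison of both knockouts, Cic-S-KO minus Cic-L-KO (purple); filled points have an adjusted p under 0.05 in edgeR. Gpr17 is the only gene with a filled point for Cic-L-KO against WT, and it lies below 0 in both regions.

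Ptprz1, the pleiotrophin receptor, had the smallest adjusted p of the 10 genes for a difference between the 2 regions in the Cic-S-KO effect, above the threshold. In cortex it ran from 269.7 to 335 CPM in WT, 253 to 314 in Cic-S-KO and 289.5 to 357 in Cic-L-KO, with medians of 306, 298 and 323. The lowest 2 of 7 Cic-S-KO libraries were below every Cic-L-KO library, and the groups otherwise overlapped. Cic-S-KO was lower than Cic-L-KO by a log2 difference of -0.15 ± 0.05 (adjusted p = 0.0127), while neither knockout passed against WT. In cerebellum Ptprz1 ran from 432 to 562 CPM in WT (median 507), from 488 to 630.0 in Cic-S-KO (median 553) and from 464 to 586 in Cic-L-KO (median 506). The highest 3 of 7 Cic-S-KO libraries were above every WT library. The log2 difference was 0.16 ± 0.06 against WT (adjusted p = 0.0726). It passed without Cic-S-KO replicate 6 (0.20, adjusted p = 0.0301) or WT replicate 6 (0.18, adjusted p = 0.0482). Against Cic-L-KO the difference of 0.14 ± 0.06 (adjusted p = 0.095) passed without Cic-S-KO replicate 6 or Cic-L-KO replicate 1 (adjusted p = 0.0293 and 0.04).

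For Ptprz1, the cortex difference of Cic-S-KO from WT minus the cerebellum difference was -0.24 ± 0.08 (adjusted p = 0.0646), and 0 of the 10 genes were called in this comparison (background 4.50%, with 2.01% positive and 2.50% negative). With the replicate number as a block, which pairs the cortex and cerebellum libraries of every genotype, it was -0.24 with an adjusted p of 0.0388. The pairing is doubtful for Cic-L-KO, where only 4 of 8 pairs had deviations with r over 0.1. DESeq2 gave an adjusted p of 0.0471 and called Ptprz1 alone. For the Cic-L-KO difference 0 of the 10 genes were called by edgeR or DESeq2 (background 23%, 11.5% in each direction). At an unadjusted p under 0.05, 3 genes differed for Cic-S-KO (Ptprz1, Tcf7l2 and Cspg4) and 1 for Cic-L-KO (Myrf). Ptprz1 is also an astrocyte gene, and 3 of 7 astrocyte markers were higher in Cic-S-KO cerebellum (4.34% of all genes were higher). Their summed levels were 4372 to 4865 CPM against 4055 to 4569 in WT. The part of astrocyte RNA in the Ptprz1 values was not tested.

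Ptn, the ligand of the Ptprz1 receptor, was lower than WT in Cic-L-KO cortex and higher than WT in Cic-S-KO cerebellum. It ran from 474 to 545 CPM in WT cortex, 418 to 588 in Cic-S-KO and 334 to 385 in Cic-L-KO, so that every Cic-L-KO library was below every other cortex library. Ptn fell by 0.48 ± 0.05 on the log2 scale in Cic-L-KO cortex (adjusted p = 2.45e-09). In cerebellum it was 0.30 ± 0.05 above WT in Cic-S-KO (adjusted p = 0.00155) and 0.14 ± 0.05 in Cic-L-KO (adjusted p = 0.0655). The difference between regions passed for Cic-L-KO (-0.61 ± 0.07, adjusted p = 1.79e-08) and for Cic-S-KO (-0.28 ± 0.08, adjusted p = 0.0269).

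Cspg4, the NG2 proteoglycan gene of precursors and also of pericytes, passed no genotype test. In cortex it ran from 16.5 to 23.4 CPM in WT, 17.8 to 23.5 in Cic-S-KO and 19.5 to 24.0 in Cic-L-KO. The 3 ranges overlapped, and the log2 difference of Cic-L-KO against WT was 0.13 ± 0.07 (adjusted p = 0.096). That difference passed without Cic-L-KO replicate 7 (0.17, adjusted p = 0.0354) or WT replicate 1 (0.16, adjusted p = 0.0483). Against Cic-L-KO, Cic-S-KO cortex was -0.14 ± 0.07 (adjusted p = 0.0979), and this passed without Cic-L-KO replicate 7 or Cic-S-KO replicate 2 or 6 (-0.18 in each, adjusted p = 0.042 to 0.0463). In cerebellum Cspg4 was 8.29 ± 1.72 CPM for WT, 10.03 ± 2.43 for Cic-S-KO and 9.75 ± 0.779 for Cic-L-KO. Pericyte markers were higher in Cic-L-KO, with 3 of 5 called in cortex and 4 of 5 in cerebellum (21.4% and 10.9% of all genes were higher) and summed levels of 128 to 162 CPM in Cic-L-KO cerebellum against 91.8 to 120 in WT. Their part in the Cspg4 values was not tested. Pdgfra, a precursor receptor gene outside the 10, was 0.02 ± 0.05 from WT in Cic-L-KO cortex and rose by 0.29 ± 0.08 in Cic-L-KO cerebellum (adjusted p = 0.0137).

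Olig1 and Olig2, the basic helix-loop-helix factors that open the lineage, did not pass any genotype test in either region. Olig1 was 96.4 ± 12.1 CPM in WT cortex, 104 ± 11.1 for Cic-S-KO and 104 ± 6.91 for Cic-L-KO, and 71.7 ± 16.7, 80.0 ± 14.5 and 73.2 ± 10.9 CPM in cerebellum. Olig2, the gene with a Capicua octamer in its window, was 30.2 ± 2.54 CPM in WT cortex, 29.3 ± 3.14 for Cic-S-KO and 32.6 ± 4.74 for Cic-L-KO. Its cerebellum means were 20.4 ± 3.11, 19.9 ± 5.06 and 22.2 ± 6.44 CPM. The genotype differences of Olig2 lay between -0.15 and 0.12 on the log2 scale over the 6 brain comparisons, with SEs of 0.08 to 0.17.

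Bcas1 marks newly formed and early myelinating cells and passed no genotype test in brain. It was 137 ± 14.6 CPM in WT cortex, 121 ± 18.9 in Cic-S-KO (log2 difference -0.18 ± 0.09, adjusted p = 0.232) and 122 ± 11.4 in Cic-L-KO (-0.16 ± 0.08, adjusted p = 0.121). All 3 ranges overlapped, with 4 of 7 Cic-S-KO and 3 of 8 Cic-L-KO libraries below every WT library. In cerebellum the means were 166 ± 30.8, 150.1 ± 29.8 and 173 ± 28.6 CPM.

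Tcf7l2, the Wnt effector, stood between 4.14 and 12.1 CPM in every cortex library and passed no genotype test. In cerebellum it ran from 6.09 to 8.68 CPM in WT (median 6.47), from 5.05 to 51.9 in Cic-S-KO (median 8.61) and from 7.34 to 19.4 in Cic-L-KO (median 9.43). Cic-S-KO replicate 4 alone reached 51.9 CPM, the other Cic-S-KO libraries at most 13.3. The Cic-S-KO difference was 1.09 ± 0.40 (adjusted p = 0.0975) with that library and 0.27 without it (adjusted p = 0.458). The Cic-L-KO difference of 0.58 ± 0.39 (adjusted p = 0.318) passed without it, with the same size of 0.58 (adjusted p = 0.0288), and in a fit to WT and Cic-L-KO alone (adjusted p = 0.0149). The difference between the knockouts was 0.50 ± 0.39 with and -0.31 without that library. Thalamic neurons also express Tcf7l2, and genes listed as thalamus markers, some of which the cerebellum itself expresses, summed to 666 to 749.6 CPM in WT, 767 to 877 in Cic-S-KO and 636 to 771 in Cic-L-KO cerebellum. Of 5 of them, 2 were higher and 1 lower in Cic-S-KO cerebellum (4.34% and 3.89% of all genes), and their part in the Tcf7l2 values was not tested.

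Other genes of the lineage were read from lists chosen with results of these data known. Of 13 other genes of newly formed oligodendrocytes, 4 fell and 2 rose in Cic-L-KO cortex, a share near that of all genes (21.9% lower, 21.4% higher). The long noncoding RNA gene 9630013A20Rik fell by 0.49 ± 0.13 and Kif19a, a kinesin gene, by 0.47 ± 0.15 on the log2 scale (adjusted p = 0.00264 and 0.0104). The other genes that fell, named after their values were seen, were Bmp4 (-0.45 ± 0.17) and Enpp6 (-0.28 ± 0.10), a choline phosphodiesterase gene of new oligodendrocytes. In Cic-L-KO cerebellum 2 of 12 fell and none rose (10.6% of all genes lower, 10.9% higher): 9630013A20Rik, from 1.65 to 2.59 CPM in WT to 0.620 to 1.76 in Cic-L-KO (-1.11 ± 0.17, adjusted p = 3.07e-05), and Cnksr3 (-0.50 ± 0.11, adjusted p = 0.0021). For 9630013A20Rik, 7 of 8 Cic-L-KO libraries were below every WT library. In Cic-S-KO, Enpp6 rose in cortex (0.38 ± 0.11, adjusted p = 0.028) and in cerebellum (0.34 ± 0.10, adjusted p = 0.0313). It was the only one of 13 called in Cic-S-KO cortex (6.53% of all genes), and in cerebellum Mycl (0.61 ± 0.08) and Itpr2 (0.20 ± 0.06) also rose and Cnksr3 fell by 0.38 ± 0.11, for 4 of 12 called (8.23% of all genes). Between the knockouts, 6 of 13 differed in cortex (33.9% of all genes), led by Enpp6 (0.66 ± 0.11), Kif19a (0.56 ± 0.15) and Bmp4 (0.63 ± 0.17), higher in Cic-S-KO, and Cemip2 (-0.40 ± 0.07), lower.

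Among 19 other lineage transcription factors tested in cortex, Sp7 showed the largest difference in both knockouts. Sp7, a zinc finger factor, ran from 0.441 to 1.65 CPM in WT cortex, 2.87 to 4.87 in Cic-S-KO and 1.53 to 3.75 in Cic-L-KO. All Cic-S-KO libraries were above all WT libraries. Sp7 rose by 1.67 ± 0.23 on the log2 scale in Cic-S-KO and by 1.09 ± 0.22 in Cic-L-KO cortex (adjusted p = 4.94e-05 and 0.000231), and by 1.11 ± 0.21 and 1.00 ± 0.20 in cerebellum (adjusted p = 0.00192 and 0.000886). In Cic-S-KO cortex 1 of 19 factors rose and 2 fell (2.83% and 3.70% of all genes). In Cic-L-KO cortex 3 rose and 5 fell (21.4% and 21.9%), near the share of all genes. In cerebellum, of 20, 4 rose and 1 fell in Cic-S-KO (4.34% and 3.89% of all genes) and 2 rose and 3 fell in Cic-L-KO (10.9% and 10.6%). Klf9, a hormone-induced factor, was lower than WT in all 4 comparisons, with log2 differences of -0.31 ± 0.07 and -0.23 ± 0.07 in cortex and -0.24 ± 0.06 and -0.37 ± 0.06 in cerebellum, Cic-S-KO first.

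For the lists that follow, the shares of all genes called higher and lower were 2.83% and 3.70% in Cic-S-KO cortex, 21.4% and 21.9% in Cic-L-KO cortex, 4.34% and 3.89% in Cic-S-KO cerebellum, and 10.9% and 10.6% in Cic-L-KO cerebellum. Of 10 other precursor genes, 3 rose in Cic-S-KO cortex, among them Megf11 (0.26 ± 0.05), and 3 rose and 2 fell in Cic-L-KO cortex, the latter near the 43.2% of all genes called there. The matrix genes Matn4 (0.74 ± 0.07), Sulf2 (0.45 ± 0.05) and Bcan (0.31 ± 0.04) rose in Cic-L-KO cortex and Megf11 fell by 0.21 ± 0.05. In cerebellum 0 were called in Cic-S-KO by edgeR, with 2 at an unadjusted p under 0.05, while in Cic-L-KO 3 rose and 1 fell. Of 22 mature oligodendrocyte and myelin genes, 5 rose and 2 fell in Cic-S-KO cortex and 3 rose and 3 fell in Cic-L-KO cortex, the first above and the second below the share of all genes called (6.53% and 43.2%). Among these, Mag (0.51 ± 0.07) and Gal3st1 (0.37 ± 0.07) rose in Cic-S-KO cortex, and Hapln2, a link protein gene of nodes of Ranvier, fell by 1.28 ± 0.09. Mbp, named after its values were seen, was 0.23 ± 0.08 above WT in that group without passing (adjusted p = 0.106). In cerebellum 4 rose and 1 fell in Cic-S-KO and 4 rose and none fell in Cic-L-KO. Of 20 signals and receptors, 1 rose and 2 fell in Cic-S-KO cortex, 11 rose and 2 fell in Cic-L-KO cortex, and 4 and 8 rose in Cic-S-KO and Cic-L-KO cerebellum with none lower. Notch1, the receptor that holds precursors undifferentiated, rose in all 4 comparisons, by 0.27 to 0.36. Igf1r rose by 0.51 ± 0.05 in Cic-L-KO cortex and 0.38 ± 0.06 in Cic-L-KO cerebellum.

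**Figure D3:**
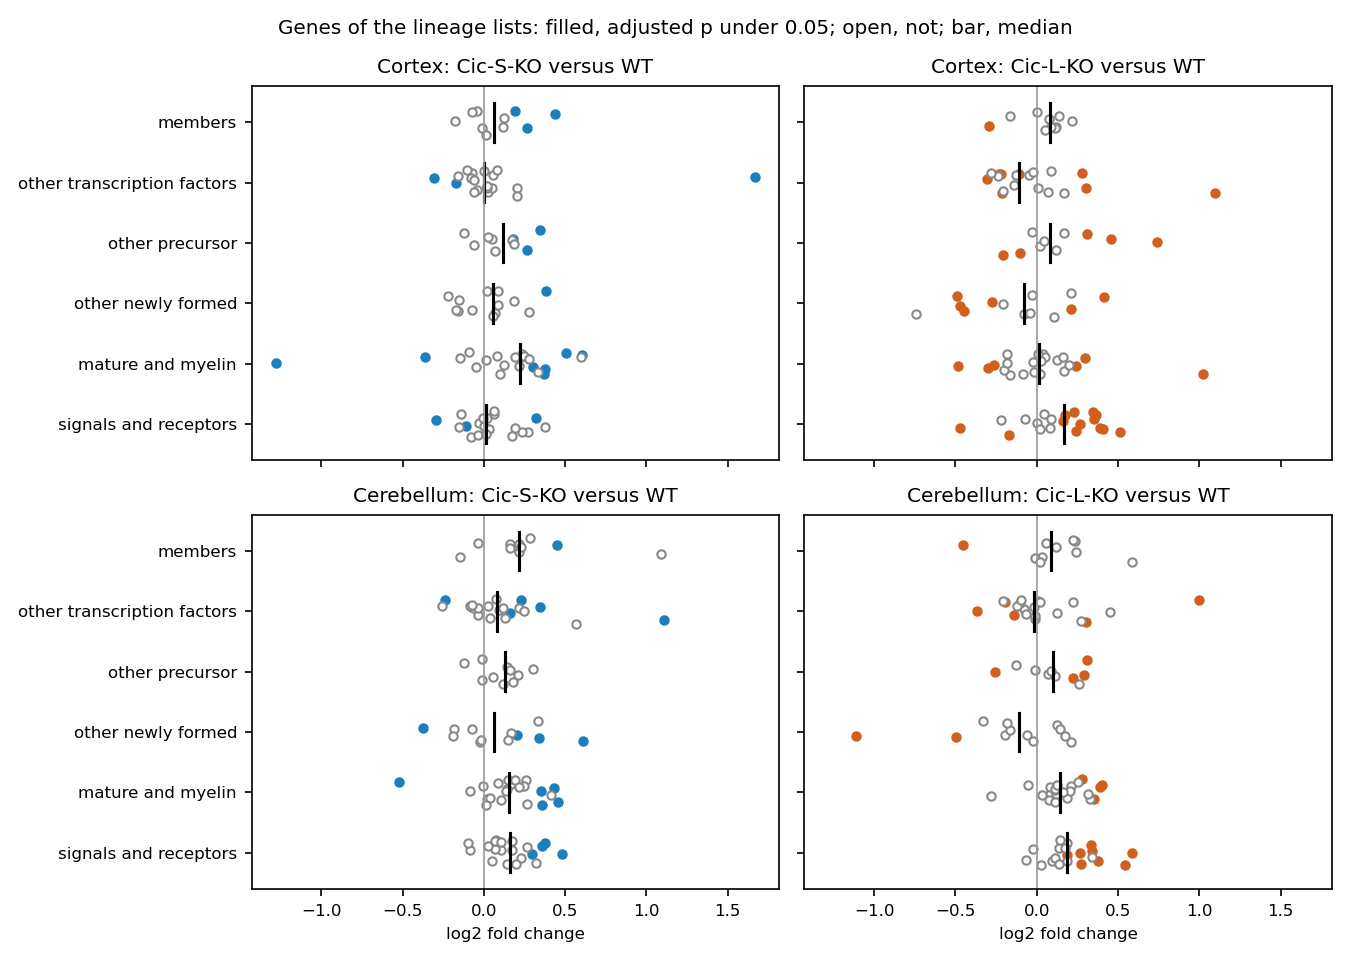
Log2 difference from WT of the 10 genes and of 5 lists of lineage genes, for cortex (top), cerebellum (bottom), Cic-S-KO (left) and Cic-L-KO (right); each point is a gene, filled where the adjusted p is under 0.05, and bars are list medians. Genes of every list lie on both sides of 0, and Sp7 is the point farthest to the right in the list of other transcription factors in all 4 panels.

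Markers of other cells and of neighbouring tissue moved with genotype or with single libraries. Neuron markers summed to 7369 to 8019 CPM in WT cortex, 6575 to 7211 in Cic-S-KO and 5381 to 6242 in Cic-L-KO, so the 3 genotypes did not overlap. Of these 7 markers, 2 were lower in Cic-S-KO cortex (3.70% of all genes) and 5 in the Cic-L-KO cortex (21.9% of all genes). Striatum markers, a sign of tissue beneath the cortex, summed to 140 to 431 CPM in WT cortex (median 236), 153 to 520 in Cic-S-KO (median 445) and 127 to 428 in Cic-L-KO (median 229), with 0 of 6 called by edgeR in either knockout (2 and 0 at an unadjusted p under 0.05, in that order). Choroid plexus markers summed to 19.1 to 576 CPM in WT cortex (median 25.3) and 7.94 to 602 in Cic-S-KO (median 17.5). In Cic-L-KO cortex they summed to 12.9 to 1262 CPM (median 397). Against WT, 4 of 5 had an unadjusted p under 0.05 (edgeR) in Cic-L-KO and 0 in Cic-S-KO. The share of all genes at that cut is not given here. These marker values stand beside the Sox10, Nkx2-2, Myrf and Gpr17 differences in cortex, and their part in them was not tested. In cerebellum the neuron markers summed to 5059.9 to 5766 CPM in WT, 4535 to 5235 for Cic-S-KO and 4708 to 5234 for Cic-L-KO, with 2 of 7 higher and 4 lower in each knockout. The shares of all genes higher and lower were 4.34% and 3.89% in Cic-S-KO cerebellum. In Cic-L-KO cerebellum they were 10.9% and 10.6%. Endothelial markers summed to 117 to 154 CPM in WT cerebellum, 120.1 to 175 for Cic-S-KO and 166 to 199.9 for Cic-L-KO. All Cic-L-KO libraries were above all WT libraries, and 4 of 5 markers were higher (10.9% of all genes). In Cic-L-KO cortex 2 of 5 were higher (21.4% of all genes). The part of these markers in the Gpr17 and Nkx2-2 differences in cerebellum was not tested.

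In cerebellum 4 libraries held brainstem transcripts, with Chat and Hoxb3 both above 1 CPM: WT replicate 1, Cic-S-KO replicate 6 and Cic-L-KO replicates 3 and 4. Olig2 ran from 27.1 to 32.5 CPM in these 4 and from 15.1 to 26.3 in the other 19. Bcas1 ran from 199.8 to 229 CPM in the 4 and from 126 to 193 in the 19, without overlap for either gene. Olig1 (86.2 to 109 CPM against 56.7 to 89.6), Myrf (76.0 to 95.2 against 52.4 to 80.6) and Sox10 (44.8 to 64.1 against 28.8 to 54.8) were in the upper part of the range in the 4, with overlap. Gpr17 ran from 16.0 to 27.9 CPM in the 4 and from 11.1 to 26.4 in the 19. Without these 4 libraries, an alternative added after the data were seen, the Gpr17 difference in Cic-L-KO was -0.55 (adjusted p = 0.00146) and the Nkx2-2 difference in Cic-S-KO 0.37 (adjusted p = 0.0236). Cspg4, Sox10 and Myrf were then also called in Cic-L-KO (0.31, 0.33 and 0.25, adjusted p = 0.0364, 0.0475 and 0.0241), for 4 of 10 genes. The share of all genes called in that fit is not given here, so this count has no background beside it. Ptprz1 was then called in Cic-S-KO against WT (0.16, adjusted p = 0.0288) and against Cic-L-KO (0.16, adjusted p = 0.0277), and its difference between regions passed (-0.24, adjusted p = 0.0365).

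**Figure D4:**
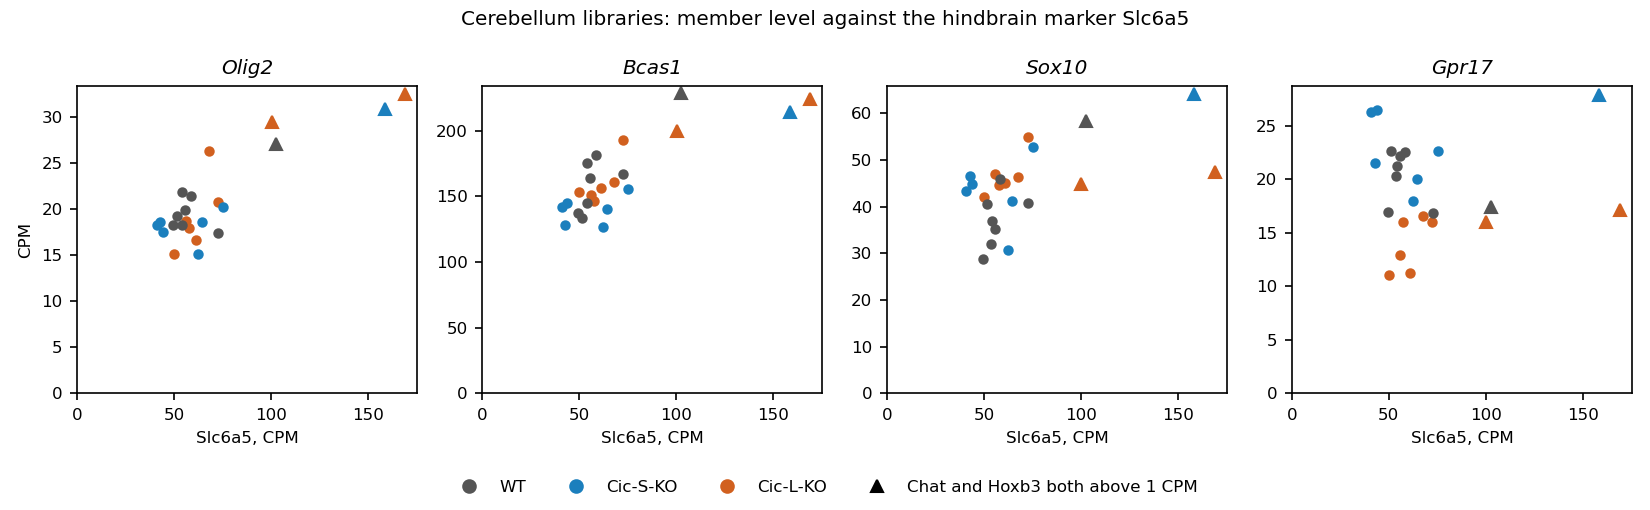
CPM of Olig2, Bcas1, Sox10 and Gpr17 against CPM of the hindbrain gene Slc6a5 in the 23 cerebellum libraries (linear axes from 0), coloured by genotype; triangles are the 4 libraries with Chat and Hoxb3 above 1 CPM. Olig2 and Bcas1 are highest in those 4 libraries, which lie at 100.2 to 169 CPM of Slc6a5 against 40.9 to 75.3 in the others, while for Gpr17 every Cic-L-KO library lies below every Cic-S-KO library.

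The genes were also compared with each other across the libraries of a region, as deviations of log2 CPM from the genotype mean (23 libraries, permutation test, Benjamini-Hochberg over 90 pairs in both regions). The share of related pairs among other genes was not measured, so the counts of pairs in either region have no background. In cortex 9 of 45 pairs were related, all positively. Bcas1 and Myrf had r = 0.74 and rho = 0.68 (permutation p = 8e-05 and 0.0011, adjusted 0.00072 and 0.009), with r = 0.70 without the 2 libraries farthest from the median. Sox10 and Myrf had r = 0.73 and rho = 0.61 (permutation p = 0.0004 and 0.00349, adjusted 0.0027 and 0.0209), and r = 0.63 without 2 libraries. Without the 2 libraries farthest from the median, 5 pairs were called, 3 of them among the 9.

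In cerebellum 22 of 45 pairs were related, 16 positively and 6 negatively, and all 6 negative pairs included Ptprz1. None of these 6 was called without the 2 libraries farthest from the median (adjusted permutation p = 0.112 to 0.511) or without the brainstem-rich libraries (0.162 to 0.842). Olig1 and Bcas1 had r = 0.91 and rho = 0.87 (permutation p = 1e-05 for each, the smallest that 100000 permutations give, adjusted 0.00018 and 0.00045), with r = 0.85 without 2 libraries and 0.76 without the 4 brainstem-rich ones. Bcas1 and Ptprz1 had r = -0.72 and rho = -0.61 (permutation p = 0.00042 and 0.00496, adjusted 0.0027 and 0.0279). That pair was no longer called without 2 libraries (r = -0.50, adjusted permutation p = 0.112) or without the brainstem-rich libraries (r = -0.49, adjusted permutation p = 0.162). Without the brainstem-rich libraries 11 pairs were called, all 11 among the 22. Each point is 1 library, with 1 dissection and 1 sequencing depth for all genes, and the part of either in these relations was not tested.

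Across all 46 brain libraries, after subtraction of the 6 group means, 12671 genes were compared with 3 of the members. The 10 members themselves were left out of the ranks that follow. The 3 genes most like Sox10 included the myelin genes Fa2h (r = 0.85) and Mag (0.83). Those most like Gpr17 were Tln2 (0.65), Abca9 (0.63) and Tbc1d5 (0.63), and those most like Cspg4 were Wdr91 (0.72), 1700003E16Rik (0.72) and Evpl (0.71). These are descriptions over libraries that share tissue and processing.

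In lung, 6 of the 10 genes passed the filter, and 1 was called, higher, in Cic-S-KO (background 15.7%, with 9.99% higher and 5.73% lower) and 0 in Cic-L-KO by edgeR or DESeq2 (background 4.89%, with 2.62% higher and 2.28% lower). Bcas1 was 3.75 ± 0.675 CPM in WT lung, 5.16 ± 1.29 for Cic-S-KO and 3.62 ± 0.935 for Cic-L-KO. The Cic-S-KO difference was 0.46 ± 0.16 on the log2 scale (adjusted p = 0.0494), with overlapping groups, and it missed the threshold with relative log expression scaling (0.45, adjusted p = 0.0507) or with no filter on low counts (0.45, adjusted p = 0.0708). Gpr17 was 1.02 ± 0.301 CPM in WT and 0.568 ± 0.202 in Cic-L-KO lung, a log2 difference of -0.82 ± 0.31 (adjusted p = 0.127). At an unadjusted p under 0.05, Gpr17 was the only gene of the 6 in that comparison.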

How the data were processed

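The authors deposited raw read counts per gene for 70 libraries. Reads were aligned with STAR 2.7 to GRCm38.p6, per the submitters' processing notes; the counting program, annotation and strand setting are not given in the sources used here. Of 50789 versioned Ensembl identifiers, 50725 matched GENCODE M21, which gave symbols and exon lengths. A few genes of the lists were not analysed here, and some list genes that the naming rule covers are not reported here by name. The 10 genes and the other lists were chosen with earlier results of these data known. In each other list of lineage genes, at most the 4 called genes with the smallest p per comparison are named; a gene so named is followed through the other comparisons, and others are said to be named after their values were seen.

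Counts were filtered (filterByExpr), scaled by TMM and fitted per tissue, over the 3 genotypes, with edgeR 4.0.16 (R 4.3.3) quasi-likelihood models; p-values were Benjamini-Hochberg adjusted over all genes tested, with a threshold of 0.05. Differences between regions came from a fit to all 46 brain libraries. CPM for relations and likeness used a prior count of 2 on the log2 scale. The models were tested on simulated data. Total counts ran from 17798655 to 35523037 per library. Alternatives were RLE scaling, no filter, DESeq2 1.42.0, a replicate block, a Y-linked covariate, 2-genotype fits, GC adjustment over 20 bins and single libraries left out, with the brainstem-rich libraries left out as an alternative added after the data were seen.

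Same-numbered cortex and cerebellum libraries deviated together in WT (8 of 8 pairs with r over 0.1, mean 0.30) and Cic-S-KO (7 of 7, mean 0.21) but in 4 of 8 Cic-L-KO pairs, a pairing read from the titles and the data, since no label states a shared animal.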

Additional observations from a re-analysis of the deposited data

Results flagged for a closer look

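In 12 of 60 brain groups of the 10 genes, the highest or lowest library stood apart from the rest of its group; about 3 of 60 are reached by chance, as 1 in 20 groups is. In cerebellum, Cic-S-KO replicate 6, a brainstem-rich library, was highest for Bcas1 (214 CPM, others at most 155), Cspg4 (15.0, others at most 10.7) and Olig2 (30.8, others at most 20.2). WT replicate 1, also brainstem-rich, was highest for Olig1 (109 CPM, others at most 78.4) and Olig2 (27.1, others at most 21.9). Cic-L-KO replicate 5 was highest for Sox10 (54.8 CPM, others at most 47.4). Tcf7l2 stood apart in Cic-S-KO replicate 4 (51.9 CPM, others at most 13.3), Cic-L-KO replicate 2 (19.4, others at most 10.2) and, in cortex, WT replicate 7 (12.1, others at most 7.42). The low libraries in cortex were Cic-L-KO replicate 7 (19.5 CPM, others at least 22.6) and WT replicate 6 (16.5, others at least 20.2) for Cspg4, and Cic-L-KO replicate 4 (43.5, others at least 53.5) for Myrf.

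The difference from WT itself differed between cortex and cerebellum, by the interaction test in edgeR, for 4 of 13 newly formed oligodendrocyte genes in Cic-L-KO (23% of all genes were called in that comparison): 9630013A20Rik (cortex minus cerebellum 0.63), Cnksr3 (0.45), Cemip2 (0.44) and Enpp6 (-0.40). It also differed for Ptn, by -0.61 in Cic-L-KO and -0.28 in Cic-S-KO.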

How the results depend on the processing

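No called result changed direction, while uncalled values did (Tcf7l2 between the knockouts in cerebellum went from 0.50 to -0.31 without Cic-S-KO replicate 4, and Olig1 in Cic-L-KO cerebellum from 0.03 to -0.02 with GC adjustment). Of the values of single genes under an alternative, 1967 kept their side of the threshold whatever their sign, while 31 lost and 30 gained a call. The count of the 10 genes called in Cic-S-KO cortex (3) was 1 with the replicate block and 0 with GC adjustment, and ran from 1 to 3 with single libraries left out; the 4 fits that gave 1 left out Cic-S-KO replicate 2 or 7 or WT replicate 3 or 5. In Cic-L-KO cortex (1) it was 2 with GC adjustment and 1 to 2 with single libraries left out. In Cic-S-KO cerebellum (1) it was 2 with GC adjustment, 2 without the brainstem-rich libraries and 1 to 2 with single libraries left out. In Cic-L-KO cerebellum (1) it was 2 with DESeq2, 3 in the fit to the 2 genotypes, 4 without the brainstem-rich libraries and 1 to 3 with single libraries left out. Between the knockouts it ran from 3 to 5 in cortex (4) and 2 to 3 in cerebellum (2) with single libraries left out. Where the calls over all genes in a fit are not given below, its count has no background beside it. The Cic-S-KO difference between regions (0) became 1 with DESeq2, with the replicate block and without the brainstem-rich libraries, each time through Ptprz1. The lung count in Cic-S-KO (1) was 0 with RLE normalization; with no low-count filter it was 1 through Nkx2-2 (adjusted p = 0.0397, with at most 0.159 CPM in any library) in place of Bcas1. The 31 related pairs became 19 without the 2 samples farthest from the median (cortex 5, cerebellum 14) and 18 without the brainstem-rich libraries (cerebellum 11). Over all genes, the calls in Cic-S-KO cortex (1108) came to 627 with the replicate block, 453 with GC adjustment, 732 with no low-count filter, 654 in the fit to the 2 genotypes and 461 (Cic-S-KO replicate 6) to 1536 with single libraries left out. Those in Cic-S-KO cerebellum (1370) came to 591 with the replicate block and ran from 883 (Cic-S-KO replicate 6) to 1851. The Cic-S-KO difference between regions went from 812 to 446 with no low-count filter, and Cic-L-KO lung from 817 to 1285 with the replicate block. The causes were not tested.

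Within cortex and within cerebellum the replicate numbers of the titles did not clearly pair the genotypes. The library names number most Cic-S-KO brain libraries differently from the titles. Both the pairs and the replicate block follow the titles, and pairing by library name was not tested. At most 5 of 8 same-numbered pairs had r over 0.1, and at most 2 pairs per set matched best under their own number. In lung, 7 of 8 pairs of WT and Cic-L-KO had r over 0.1 (mean 0.27), and 6 matched best under their own number. Every set within a tissue, lung included, had a pair with r under 0.1, and whether the lung numbers mark related libraries was not tested. Among the members, the replicate block within a tissue changed only the Nkx2-2 and Myrf calls in Cic-S-KO cortex. Their adjusted p was then 0.0603 and 0.0516. Depth limits Nkx2-2 in cortex, with as few as 53 reads in a library.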
